A study of Mus musculus with 4 samples.

Results

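The Serpin genes are the 67 mouse genes, of 37310 in the deposited counts with an annotated symbol, whose symbol starts with Serpin. They fall into clades A to I, named by the letter after Serpin, with 28 genes in clade A, 28 in clade B, 3 in clade E, 2 each in clades F and I, and 1 each in clades C, D, G and H. They were measured by RNA-seq in Lin-LEPR+ bone marrow cells, which the methods describe as sorted for lack of Ter119, CD31 and CD45 and for the leptin receptor, while the sample labels give whole bone marrow. There were 2 libraries from mature mice of 3 months and 2 from elderly mice of 24 months, all WT and C57Bl/6, and the methods give the mice as male and name no treatment. RNA was combined over 3 or 4 mice per group, while the sample titles number 1 mouse per library, so it cannot be told here how many mice stand behind a library. An SD is the spread between 2 libraries of an age and p-values measure that spread, which may be technical. The labels give poly(A) RNA for every library, and the methods name exceptions made from total RNA by abbreviations that were not matched to these libraries. Among these abbreviations is an age in weeks close to that of the mature mice. If it meant the mature libraries, RNA selection and age could not be told apart. The question was which Serpin genes and clades differed between mature and elderly cells.

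Serpins are protease inhibitors that work as single-use traps. A flexible stretch near the C-terminus, the reactive-centre loop, is offered to a protease as bait, and when the protease cuts it the loop folds into the body of the serpin and locks the enzyme in a covalent complex. A short hinge at the start of the loop allows this movement, and the residues after it decide which protease is caught. Members control clotting, fibrinolysis and complement in plasma and granule proteases inside leukocytes, and a few, such as the collagen chaperone Serpinh1, inhibit nothing. In bone marrow, granule proteases of myeloid cells cut adhesion and retention factors of the stroma, and serpins made there oppose them.

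The libraries held between 10472117 and 15650518 counts. A read that falls where annotated transcripts overlap was left uncounted, since all 25621 transcripts with no exonic base of their own had 0 counts, including 807 covered only from the opposite strand. A value in CPM (counts scaled to 1000000 per library by library size and TMM factor) therefore covers a gene's own bases alone. The 10 markers of LEPR+ stroma summed to 31425 and 31943 CPM at 3 months against 19234 and 27654 CPM at 24 months. All 10 were lower in the fit and none was called. Among markers of other marrow cells, 7 of 11 neutrophil markers tested, 4 of 7 erythroid markers tested and 4 of 7 macrophage markers tested were called higher in elderly cells, none of these markers being at 0 in all libraries. The neutrophil markers summed to 2240 and 1271 CPM in mature and 4820 and 4626 CPM in elderly libraries, the erythroid markers to 238 and 93.8 against 813 and 811 CPM, and the macrophage markers to 525 and 338 against 814 and 920.1 CPM. Osteoblast markers summed to 6713 and 6003 CPM against 1594 and 3478 CPM, with 1 called in each direction. The other 9 marker lists held 4 genes called higher and 1 called lower. Among all 22214 genes tested, 1.94% were called higher and 0.423% lower, at an adjusted p under 0.05 in edgeR's quasi-likelihood test. In bulk RNA, fewer cells of a type and less RNA per cell cannot be told apart.

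The loops of the serpins that carry the results are shown first, because the loop is the part of a serpin that names its target. Each is the coding strand, 5′ to 3′, of 90 bases from the hinge onward in NCBI Build 37 (mm9), and the capitals mark the 6 codons of the hinge, found by its pattern of glutamate, any residue, glycine, a small or branched residue, any residue and a small residue. The pattern was found in 51 of the 67 genes and not in Serpinh1. The 3 most counted Serpina3 genes with a full coding model come first, then C1 inhibitor, Serpine2 of clade E, and the granule protease inhibitor of clade B.
Serpina3n: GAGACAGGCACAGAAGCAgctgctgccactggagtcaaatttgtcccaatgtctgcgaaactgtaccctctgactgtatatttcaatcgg
Serpina3c: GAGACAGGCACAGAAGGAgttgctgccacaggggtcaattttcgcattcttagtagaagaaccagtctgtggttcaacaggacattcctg
Serpina3m: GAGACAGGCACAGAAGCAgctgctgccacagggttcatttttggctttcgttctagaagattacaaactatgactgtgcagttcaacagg
Serping1: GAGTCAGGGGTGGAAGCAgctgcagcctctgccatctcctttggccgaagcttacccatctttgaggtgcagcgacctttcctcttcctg
Serpine2: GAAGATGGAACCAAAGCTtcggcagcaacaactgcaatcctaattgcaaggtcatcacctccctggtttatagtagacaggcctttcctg
Serpinb1a: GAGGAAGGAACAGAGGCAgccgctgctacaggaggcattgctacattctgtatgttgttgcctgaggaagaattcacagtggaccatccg
The stretch of Serpina3n lies at chr12:105651652-105651741 on the plus strand, that of Serpina3c at chr12:105385514-105385603 on the minus strand and that of Serpina3m at chr12:105631973-105632062 on the plus strand, each within 1 coding exon. The stretch of Serping1 is at chr2:84605794-84605883 and that of Serpinb1a at chr13:32934756-32934845, both on the minus strand and within 1 coding exon. That of Serpine2, within chr1:79793426-79796073, is split over coding exons of the minus strand. Between the 3 Serpina3 genes printed here, identity over the loop, compared base by base without gaps, was below that over the coding sequence, aligned with gaps. Loops of unlike length fall out of register in such a comparison, so the values do not show which part is more alike. In pairs with Serpina3g, whose coding model is partial at 747 bases, the loop value was the higher. Serpina3c and Serpina3m were identical at 88.7% of coding bases but at 61.1% of the loop bases shown, Serpina3m and Serpina3n at 85.2% and 70.0%, and Serpina3c and Serpina3n at 85.0% and 51.1%.

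No Serpin gene was called between the ages. Of the 67 genes, 38 had a count in at least 1 library, and 31 had more than 2 counts over the 4 libraries and were tested by edgeR's quasi-likelihood test. The 7 others with a count had at most 2 in a library. The 29 at 0 in all libraries include 12 with less than 10% of their longest transcript as own bases, so their expression cannot be read from these counts. At an adjusted p under 0.05, 0 Serpin genes were called higher and 0 lower in elderly cells, against 1.94% called higher and 0.423% called lower among all 22214 genes tested. At an unadjusted p under 0.05, 2 Serpin genes were higher, Serpinb1a among them, and 2 were lower, which are Serpina3m and Serping1. That is 6.45% of the 31 in each direction, against 7.1% and 3.83% of all genes. DESeq2 called 1 Serpin gene higher, against 2.48% of all genes. The ages did not overlap for 10 Serpin genes, 5 with the elderly libraries above the mature ones and 5 with them below, which is 16.1% each way, against 22% and 18.9% of all genes tested. Those above included Serpinb1a, Serpina12, Serpina3b and the pseudogene Serpina3d-ps. The 5 below were Serping1, Serpina3n, Serpina3m, Serpina5 and Serpinb9b. The fitted log2 fold change, elderly over mature, was positive for 15 and negative for 16 of the 31, with a median of −0.036 beside −0.0060 over all genes tested. Shares this close to the background are no result about the family.

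**Figure D1:**
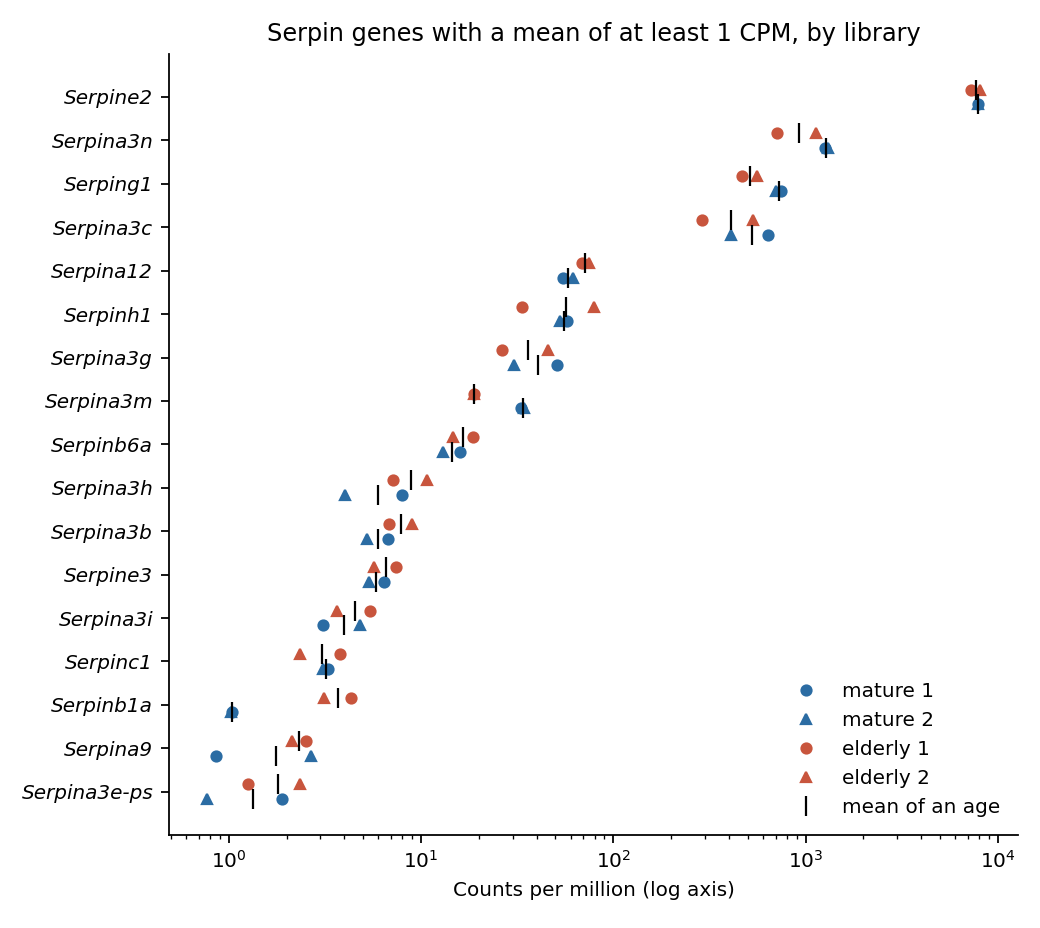
CPM (log axis) of 17 of the 18 Serpin genes with a mean of at least 1 CPM, in each of the 4 libraries, with circles and triangles for libraries 1 and 2 of an age and a vertical tick for the mean of each age. Serpine2 lies between 7291 and 8059 CPM in every library, and Serpinb1a lies higher and Serping1, Serpina3n and Serpina3m lie lower in both elderly libraries.

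The Serpin genes took between 0.956% and 1.05% of all counts in a library. Serpine2 alone held 72.9% to 80.9% of these counts. Genes were compared per kilobase of own bases of the main transcript, which were as few as 143 for Serpina3g and 171 for Serpinh1. The mature means were 5171 CPM per kb for Serpine2, 2120 for Serping1 and 622 for Serpina3n. Serpina3c was at 237, Serpina3g at 230 and Serpinh1 at 225 CPM per kb. These 6 genes led the family. Further down, Serpina3m was at 20.4 CPM per kb, Serpina12 at 15.8 and Serpinb1a at 8.78. The other named genes, apart from Serpina3h with 21.6, that are described here were under 7 CPM per kb. Over all own bases of a gene, the mature means were 2510 for Serpine2, 808 for Serping1, 257 for Serpinh1 and 116 for Serpina3g. Levels and the order of the leading genes thus depend in part on the bases used.

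The clade E serpins inhibit thrombin and the plasminogen activators. Serpine2, or protease nexin-1, at chr1:79790772-79855271, was counted at 7863 and 7872 CPM in mature and 7291 and 8059 CPM in elderly libraries, 7867 ± 6.23 against 7675 ± 543 CPM (SD, n = 2 per age). The mature libraries lay between the elderly ones. The log2 fold change was −0.04 (95% interval −0.43 to 0.36, adjusted p = 0.972), and leaving out elderly library 1 turned it to 0.063. Beside a summed level of LEPR+ stroma markers that was lower in elderly libraries, Serpine2 was 25.0% and 24.6% of that sum in mature and 37.9% and 29.1% in elderly libraries, a ratio chosen after the values were seen and not tested. Since the sum of the markers was lower, the elderly mean of this ratio was below the mature mean for only 3 of the 18 named genes, which are Serpina3m, Serpina3n and Serping1. Serpine3, of the same clade, was counted at 6.40 and 5.34 CPM against 7.39 and 5.72 CPM, with overlapping ages and a log2 fold change of 0.15 (adjusted p = 0.935).

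Serping1, the C1 inhibitor, which blocks the complement proteases C1r and C1s and the contact system, was the second serpin per kilobase. At chr2:84605544-84615601, it was counted at 742 and 705 CPM in mature and 467 and 557 CPM in elderly libraries. Both elderly libraries were below both mature ones. The means were 724 ± 26.0 and 512 ± 64.2 CPM (SD, n = 2), with a log2 fold change of −0.50 (SE 0.19, 95% interval −0.90 to −0.09), and the adjusted p of 0.287 missed the threshold in edgeR's test and under all 15 alternatives, with a lowest value of 0.205. As a percent of the summed stroma markers, Serping1 was at 2.36 and 2.21 in mature and 2.43 and 2.02 in elderly libraries, and on this ratio the ages overlapped.

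The 14 Serpina3 genes lie in 1 cluster of 302 kb on chromosome 12 and are the mouse counterparts of a single human gene, alpha-1-antichymotrypsin. All 14 had counts and were tested. Of them, 3 were annotated as pseudogenes, and Serpina3h, with no protein-coding transcript, as a processed transcript. Together the 14 genes made up 93.7% to 97.2% of the clade A counts. Serpina3n and Serpina3c held 94.7% of the counts of the cluster. The fitted log2 fold change was positive for 6 and negative for 8, with a median of −0.26. The 3 genes with the most counts, Serpina3n, Serpina3c and Serpina3g, were lowest in elderly library 1.

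Serpina3n, which inhibits granzyme B, elastase and cathepsin G, lies at chr12:105644939-105652539. It was counted at 1264 and 1305 CPM in mature and 712 and 1135 CPM in elderly libraries. Both elderly libraries were below the mature ones, but the gap between the elderly libraries was wider than that between elderly library 2 and the mature ones. The means were 1284 ± 29.1 and 924 ± 299 CPM (SD, n = 2), with a log2 fold change of −0.48 (95% interval −0.96 to 0.01, adjusted p = 0.479), and the value was −0.85 without elderly library 2 and −0.15 without elderly library 1. As a percent of the summed stroma markers it was at 4.02 and 4.08 in mature and 3.70 and 4.10 in elderly libraries, with overlapping ages.

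Serpina3m, the neighbour of Serpina3n at chr12:105625374-105632467, varied little within an age. It was counted at 33.0 and 34.5 CPM in mature and 18.8 and 18.9 CPM in elderly libraries, from 382, 401, 209 and 291 counts. The ages did not overlap. The log2 fold change was −0.84 (SE 0.23, 95% interval −1.35 to −0.33) with an adjusted p of 0.106, while as a percent of the summed stroma markers it was at 0.105 and 0.108 in mature and 0.0979 and 0.0684 in elderly libraries. The gene was called lower in 2 of 15 alternatives, the robust fit among them. Of 40-base windows of its own bases, 74.2% occurred once in the genome, so part of its reads could be shared with other places, and its values are uncertain to that extent. The share was 87.4% for Serpina3n and 88.9% for Serpina3c, whose values carry the same limit to a smaller extent.

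Serpina3c, at chr12:105384592-105392080, was counted at 639.6 and 410.3 CPM in mature and 290.8 and 531 CPM in elderly libraries. The ages overlapped, and the log2 fold change was −0.35 (95% interval −0.97 to 0.26, adjusted p = 0.717). Without mature library 1 the value was 0.013 and without elderly library 1 it was 0.044, so either of these 2 libraries set its sign. Serpina3g, an intracellular serpin that inhibits lysosomal cathepsins, was counted at 51.3 and 30.4 CPM against 26.3 and 46.0 CPM, with a log2 fold change of −0.17 (adjusted p = 0.921) that turned to 0.26 without mature library 1 and to 0.20 without elderly library 1. Both genes were high in mature library 1 and elderly library 2 and low in the other 2 libraries, whatever the age.

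The 4 less counted named genes of the cluster had fold changes above 0, none of which passed the test. Serpina3b was counted at 6.74 and 5.25 CPM against 6.85 and 8.97 CPM (log2 fold change 0.40, adjusted p = 0.731), and Serpina3h at 7.95 and 4.05 CPM against 7.12 and 10.7 CPM (0.58, adjusted p = 0.667). Serpina3i was counted at 3.11 and 4.82 CPM against 5.40 and 3.64 CPM (0.18), and the pseudogene Serpina3e-ps at 1.90 and 0.775 CPM against 1.26 and 2.34 CPM (0.44). The remaining 6 genes of the cluster, which are Serpina3a, Serpina3d-ps, Serpina3f, Serpina3j, Serpina3k and Serpina3l-ps, had at most 23 counts in a library. Serpina3f had only 1.60% of its longest transcript as own bases, so its low count is no measure of its expression.

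**Figure D2:**
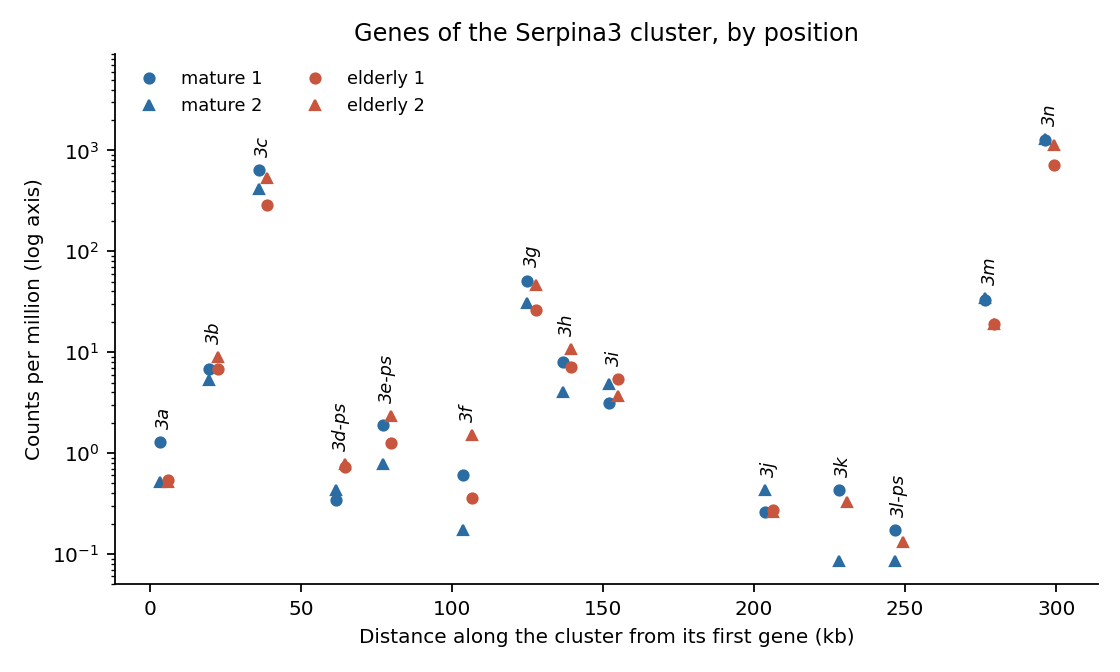
CPM (log axis) of the 14 Serpina3 genes in each library against the position of the gene's middle along the cluster, in kb from the start of the first gene, with values of 0 not drawn. Serpina3n and Serpina3m, at the far end, lie lower in both elderly libraries, while Serpina3c, Serpina3g and most of the genes between them overlap between the ages.

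Outside the cluster, only Serpina12 of clade A had more than 33 counts in a library. Serpina12, or vaspin, a secreted serpin of adipose tissue, was counted at 54.8 and 61.8 CPM in mature and 68.7 and 74.6 CPM in elderly libraries. Both elderly libraries were above both mature ones, and the log2 fold change was 0.30 (SE 0.20, 95% interval −0.14 to 0.73, adjusted p = 0.667). Serpina9, known from germinal-centre B cells, was counted at 0.865 and 2.67 CPM against 2.52 and 2.15 CPM (log2 fold change 0.40, adjusted p = 0.894). Serpina5, the protein C inhibitor, had 10, 12, 7 and 7 counts. The 5 Serpina1 genes that encode alpha-1-antitrypsin in liver, Serpina1a to Serpina1e, had 0 to 2 counts in each library. They are near-identical copies that share reads, with 20.7% to 64.4% of their 40-base windows occurring once in the genome, so these low counts are uncertain. Serpina6, the corticosteroid-binding globulin, Serpina7, the thyroxine-binding globulin, and Serpina10, Serpina11 and Serpina1f had 0 counts in all libraries, which allows up to 0.195 to 0.270 CPM in a library (3 counts, counting error only). Of these 5, Serpina11 had the fewest own bases, 1.69% of its longest transcript, and Serpina1f the most, 62.0%. The pseudogene Serpina4-ps1 had 7, 0, 0 and 1 counts.

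Clade B serpins stay inside the cell and guard it against leaked granule proteases. Of the 28 genes, 8 had a count and 3 were tested, while 20 were at 0 in all libraries, 11 of which had less than 10% of the longest transcript as own bases. Serpinb11, Serpinb6d and Serpinb9d to Serpinb9g, also at 0, share no exonic base with another transcript. Serpinb9d to Serpinb9g are near-identical copies, with 18.1% to 61.3% of their 40-base windows occurring once in the genome, so their counts of 0 are uncertain. Serpinb1a, which inhibits neutrophil elastase, cathepsin G and proteinase 3 and is known from neutrophils, had 12 and 12 counts in mature and 48 and 48 counts in elderly libraries, or 1.04, 1.03, 4.32 and 3.12 CPM. The ages did not overlap. The fold was 3.56 and the log2 fold change 1.83 (SE 0.50, 95% interval 0.73 to 2.93), the largest among the 18 named genes, with an adjusted p of 0.101 that passed the threshold in 2 of 15 alternatives. Its own bases were 7.51% of its longest transcript, so the level is that of a small remnant of the gene. Of the neutrophil markers, 7 of 11 were called higher, against 1.94% of all genes tested. Their sum, given above, was higher in both elderly libraries, and their part in the value of Serpinb1a was not tested.

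Serpinb6a, which inhibits cathepsin G, was counted at 15.9 and 13.1 CPM in mature and 18.6 and 14.7 CPM in elderly libraries. The ages overlapped, and the log2 fold change was 0.19 (95% interval −0.40 to 0.79, adjusted p = 0.885). Of its counts, 79.9% came from a retained-intron transcript, since most of its coding transcripts have few or no own bases. Serpinb9b, a relative of the granzyme B inhibitor Serpinb9, had 9, 7, 3 and 4 counts (log2 fold change −1.35, adjusted p = 0.714). Serpinb9 itself had 0 counts with 3.43% of its longest transcript as own bases, and Serpinb2, an inhibitor of urokinase, had 0, 0, 1 and 1 counts with 7.52%.

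The remaining clades were low or had few own bases. Serpinc1, or antithrombin, was counted at 3.29 and 3.10 CPM in mature and 3.78 and 2.34 CPM in elderly libraries, with a log2 fold change of −0.07 (adjusted p = 0.979) that turned to 0.25 without elderly library 2. Serpind1, or heparin cofactor II, had 2, 5, 3 and 0 counts from 6.39% of its longest transcript. Serpinf1, known as PEDF, an anti-angiogenic factor with no inhibitory activity, had 8, 8, 5 and 12 counts, and Serpinf2, or alpha-2-antiplasmin, 0, 1, 4 and 1 counts. Own bases were 47.3% of the longest transcript for Serpinf1, where a retained-intron transcript with 71 own bases held 45.5% of the counts. They were 2.51% for Serpinf2, so its low count is no measure of its expression. Serpini1, or neuroserpin, had 5, 11, 19 and 6 counts, and Serpini2 none.

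Serpinh1, or HSP47, the chaperone of procollagen in the endoplasmic reticulum, was counted at 57.3 and 53.1 CPM in mature and at 33.7 and 79.9 CPM in elderly libraries. The elderly libraries lay on either side of the mature ones and differed 2.37-fold from each other. The log2 fold change was 0.04 (95% interval −0.66 to 0.74, adjusted p = 0.983), with −0.71 without elderly library 2 and 0.56 without elderly library 1. Its own bases were 8.99% of the longest transcript, and every 40-base window of them occurred once in the genome.

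**Figure D3:**
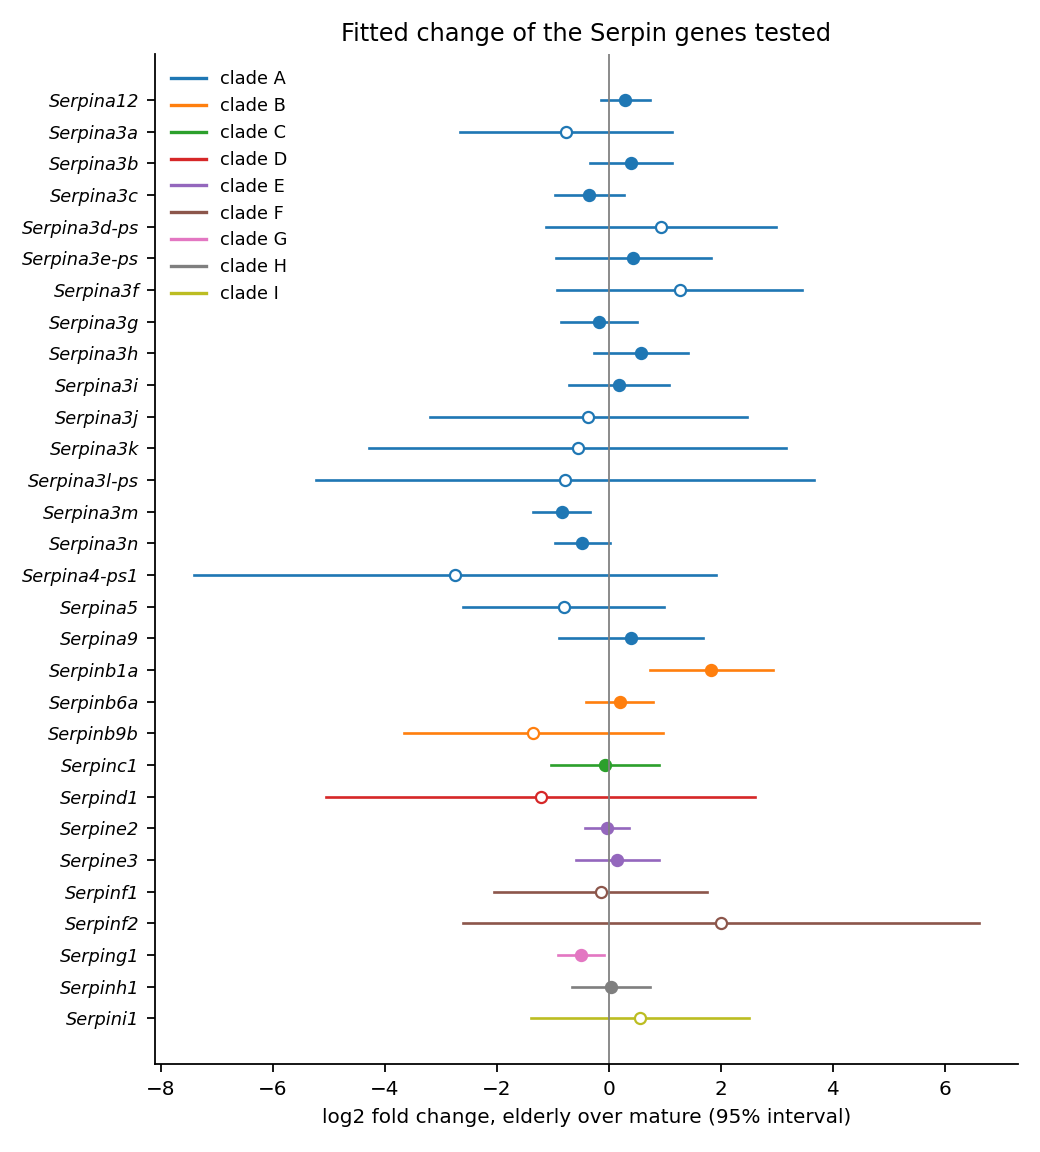
Fitted log2 fold change, elderly over mature, of 30 of the 31 Serpin genes tested with its 95% interval, coloured by clade, with filled points for genes with a mean of at least 1 CPM. The interval of Serpinb1a lies above 0 and those of Serpina3m and Serping1 below 0 before adjustment, and the wide intervals belong to genes with few counts.

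The summed CPM of each clade is given as a description, without a test. Clade A summed to 2067 and 1862 CPM in mature and 1143 and 1838 CPM in elderly libraries, a log2 ratio of the means of −0.40 that ranged from −0.78 to −0.069 when 1 library was left out. Clade E summed to 7893 and 7904 CPM against 7340 and 8120 CPM, a log2 ratio of −0.03, with nearly all of the counts from Serpine2. Clade G, which is Serping1 alone, had a log2 ratio of −0.50. Clade B summed to 17.7 and 15.0 CPM against 23.2 and 18.3 CPM, a log2 ratio of 0.35, which was 1.17 without Serpinb6a. With 2 libraries per age an exact permutation test of a clade sum cannot give a p below 0.333, so none was run.

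**Figure D4:**
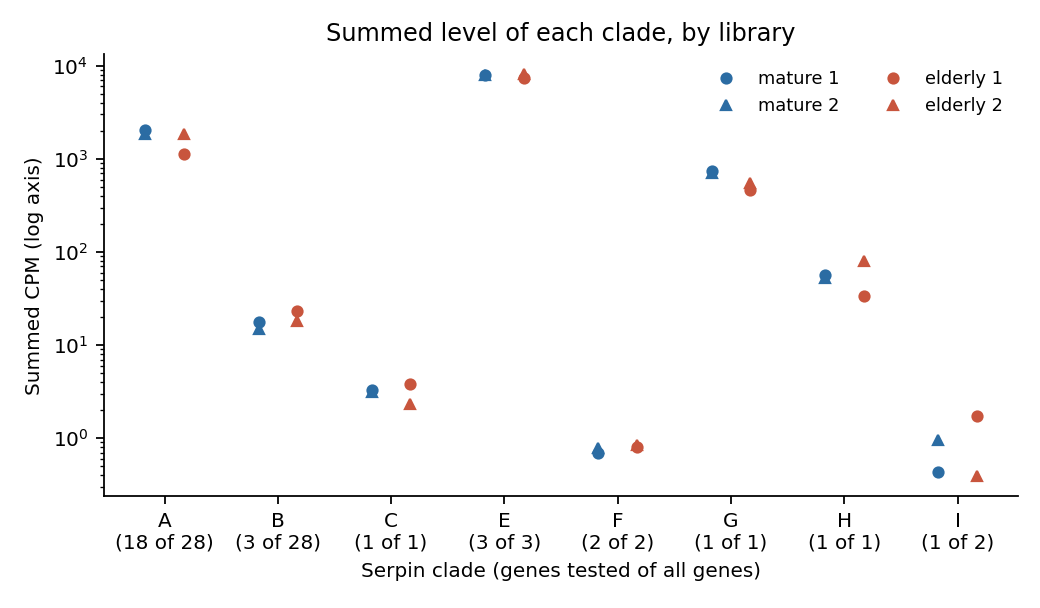
Summed CPM (log axis) of the genes of each clade in each library, with the number of genes tested of all genes of the clade under its letter and clade D, which had a library at 0, not drawn. Both elderly libraries lie below both mature libraries in clades A and G and above them in clades B and F, and the ages overlap in clades C, E, H and I. Clade F had 8 and 9 counts in mature and 9 and 13 in elderly libraries, so its order rests on few reads.

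The list of serine protease targets of serpins held 28 genes, among them the growth factor Hgf, a relative of these proteases without their activity. Of the 23 tested, 3 were called higher and 0 lower, where 1.94% and 0.423% of all genes were. The log2 fold change was positive for 16 and negative for 7, with a median of 0.64. The proteases called higher were Elane and Ctsg, both also in the neutrophil marker list, and the third gene was Hgf. Elane, neutrophil elastase and a target of Serpinb1a, was counted at 34.3 and 21.3 CPM in mature and 130.3 and 102.9 CPM in elderly libraries, and rose 4.19-fold (log2 fold change 2.07, SE 0.26, adjusted p = 0.00208). Ctsg, cathepsin G, was counted at 8.13 and 5.34 CPM against 50.4 and 23.7 CPM, and rose 5.48-fold (2.45, SE 0.37, adjusted p = 0.0052). Prtn3, proteinase 3, was at 8.30 and 8.61 CPM against 21.0 and 14.4 CPM (1.06, adjusted p = 0.110). Hgf, which is activated by cleavage, was counted at 24.1 and 26.9 CPM against 56.5 and 77.3 CPM, and rose 2.62-fold (1.39, SE 0.23, adjusted p = 0.00913).

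The plasminogen activators, which Serpine2 can inhibit, were higher in both elderly libraries without passing the test. Plau, urokinase, was counted at 10.8 and 10.9 CPM in mature and 20.4 and 21.3 CPM in elderly libraries (log2 fold change 0.94, SE 0.26, adjusted p = 0.105). Plat, tissue plasminogen activator, was counted at 4.06 and 6.29 CPM against 7.93 and 12.9 CPM (1.01, SE 0.37, adjusted p = 0.262), and Plaur, the urokinase receptor, at 56.2 and 23.3 CPM against 91.8 and 79.7 CPM (1.11, SE 0.33, adjusted p = 0.132). In all 3 genes the ages did not overlap, and both elderly libraries were above both mature ones in 22% of all genes tested.

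No complement target of Serping1 passed the test. C1ra was counted at 64.0 and 57.5 CPM in mature and 37.4 and 42.1 CPM in elderly libraries (log2 fold change −0.61, SE 0.21, adjusted p = 0.225). C1s was at 10.2 and 8.10 CPM against 6.40 and 8.91 CPM and C1rb at 2.68 and 4.56 CPM against 2.61 and 3.45 CPM, both with overlapping ages and a log2 fold change of −0.25.

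Of the 11 serpin cofactors and receptors, all tested, 1 was called higher and 0 lower, beside 1.94% and 0.423% of all genes. The log2 fold change was positive for 8 and negative for 3, with a median of 0.44. Lrp1, a clearance receptor of Serpine2 complexes with proteases, was counted at 5213 and 5120 CPM against 5264 and 4597 CPM (−0.07, 95% interval −0.47 to 0.33). Of the 7 cysteine proteases that cross-class serpins inhibit, 6 were tested and 0 were called in either direction, beside the same shares of all genes, with a median of 0.04. Ctsb, a target of Serpina3g, was counted at 1454 and 1299 CPM against 1347 and 1533 CPM (0.07, adjusted p = 0.949).

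The 16 fibrillar collagens and folding enzymes that Serpinh1 works with were all tested. Of these, 1 was called higher and 0 lower, beside 1.94% and 0.423% of all genes. The log2 fold change was positive for 5 and negative for 11, with a median of −0.23. Col1a1 was counted at 266.6 and 305.6 CPM in mature and 561 and 513 CPM in elderly libraries and rose 1.88-fold (log2 fold change 0.91, SE 0.19, adjusted p = 0.0257). Its partner chain Col1a2 was at 107 and 121 CPM against 113 and 118 CPM (0.03, adjusted p = 0.982), and the difference between the 2 chains was not tested.

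A list of protease inhibitors and related genes without a Serpin symbol held 25 genes, not all of them known inhibitors. Of these, 15 were tested, and 1 was called higher and 1 lower, beside 1.94% and 0.423% of all genes. The log2 fold change was positive for 8 and negative for 7, with a median of 0.02. A2m, alpha-2-macroglobulin, a cage that encloses proteases of every class, was counted at 505.1 and 829.6 CPM in mature and 17.7 and 59.5 CPM in elderly libraries and fell by 4.10 on the log2 scale (SE 0.46, adjusted p = 0.00109). Spock2, an extracellular proteoglycan, was counted at 1.30 and 1.89 CPM against 6.31 and 7.54 CPM and rose 4.32-fold (2.11, SE 0.41, adjusted p = 0.0206). No Serpin gene with a mean of at least 1 CPM had a fold as large as that of A2m.

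**Figure D5:**
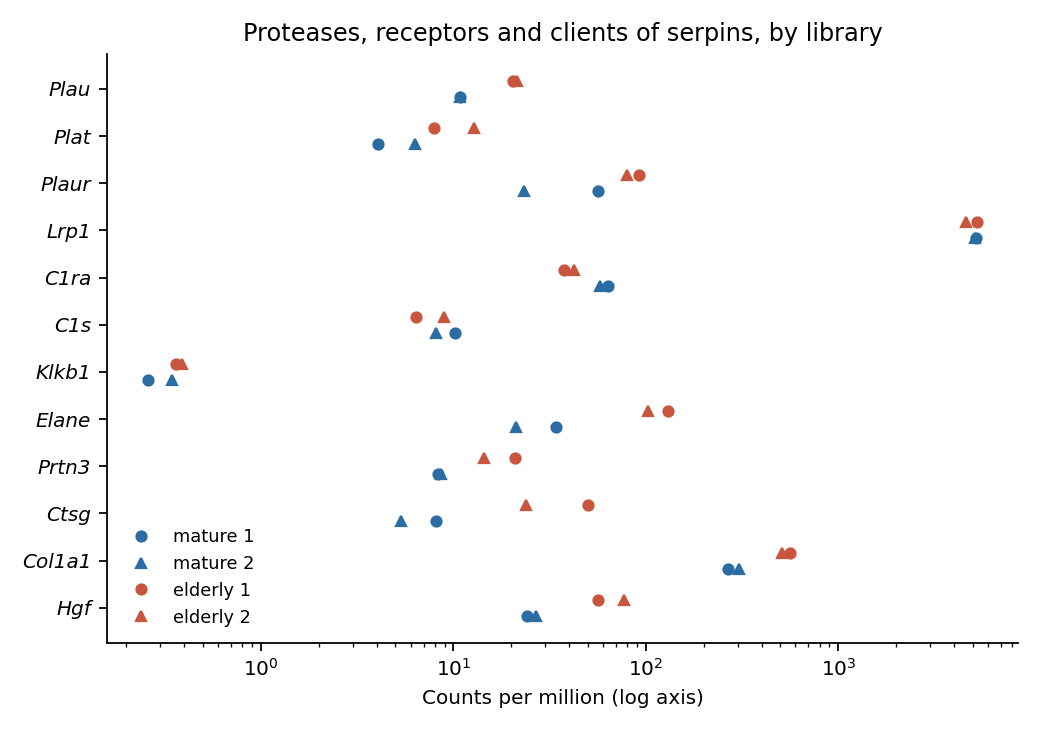
CPM (log axis) of the proteases, receptors and clients of the named Serpin genes that had a count in every library, with circles and triangles for libraries 1 and 2 of an age. Elane, Ctsg, Hgf and Col1a1 were called higher in elderly cells. Plau, Plat, Plaur and Prtn3 lie higher in both elderly libraries without being called, C1ra lies lower in both and Lrp1 and C1s overlap.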

How the data were processed

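The authors removed adapters with cutadapt, used HISAT2 for mapping to NCBI Build 37 (mm9) and featureCounts for counting, and deposited raw counts per Ensembl transcript. The strand setting and the handling of shared bases are not given in the sources used here. Transcripts were matched to GENCODE M1 (388 without a match held 0.0785% to 0.0888% of counts) and summed per gene, and genes were grouped by age from the sample titles. The 22214 genes with more than 2 counts over 4 libraries were scaled by TMM (factors 0.970 to 1.06) and tested by edgeR 4.0.16's two-sided quasi-likelihood test in R 4.3.3, and p-values were adjusted by Benjamini-Hochberg over these genes. Adjusted p-values are from this fit unless DESeq2 1.42.0 or the exact test is named. The prior count was 0.125. Simulations of this comparison, run with trended and with tagwise dispersions, changed 200 genes by a set fold. edgeR's quasi-likelihood test recovered 6.5% and 7.5% of them at 2-fold, 41.0% and 39.0% at 4-fold, and 72.0% and 68.0% at 16-fold. Of its calls at 2-fold, 0% and 28.6% were false. DESeq2 recovered 9.5% at 2-fold in both runs, and the exact test 0%. A gene left uncalled may therefore still differ by 2-fold or 4-fold. Every Serpin gene that was called or had a mean of at least 1 CPM (18) is named with its values, as are called members and partners in 5 companion lists. A few such genes are left out of the text. Members and lists were chosen with earlier results of these data known. Alternatives were other tests, filters, scalings, thresholds, a prior count of 2 and each library left out. Of the 15 given for a named gene, the prior count could not change the p-value. The fits that left 1 library in an age say little on calls.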

Additional observations from a re-analysis of the deposited data

How the results depend on the processing

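The counts of 0 Serpin genes called depended on the test. The number called higher was 1 with DESeq2, with library size alone, with the robust fit, among protein-coding genes only and at an adjusted p under 0.1, and 2, Serpinb1a among them, with no filter on low counts. Among all genes, 551, 530, 690, 498 and 609 were called higher in these settings, in the same order, and 866 with no filter. The genes tested were 22214, but 15896 for protein-coding genes and 24520 with no filter. The robust fit called 1 lower, Serpina3m, among 188 of all genes. With the replicate number as a block, 2 were called higher and 1 lower, among 962 and 314 of all genes against 430 and 94 without it. Same-numbered libraries shared only a number, with a correlation of their deviations of 0.00919. Without elderly library 1 or 2, 0 genes of any kind were called, so those fits say nothing on calls.

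Direction was kept by 9 of 18 named genes under every alternative. Serpine2 was at 0.022 with library size alone and from its main transcript, and Serpinh1 at −0.080 with the block. Leaving out 1 library, values ranged from −0.11 to 0.063 for Serpine2, −0.42 to 0.25 for Serpinc1, −0.63 to 0.26 for Serpina3g, −0.20 to 1.39 for Serpina9, −0.85 to 0.044 for Serpina3c, −0.71 to 0.56 for Serpinh1, −0.10 to 0.50 for Serpina3i, −0.0089 to 0.33 for Serpine3 and −0.081 to 1.23 for Serpina3e-ps. The log2 ratio of clade B was 1.17 without Serpinb6a and 1.27 per kilobase, that of clade E 0.81 without Serpine2, and that of clade F 2.30 without Serpinf1 and 1.53 per kilobase. These 2 values of clade F lean on Serpinf2, which had 0, 1, 4 and 1 counts from 55 own bases, too few for a ratio to be read. Leaving out 1 library, the log2 ratio ranged from −0.78 to −0.069 in clade A, −0.42 to 0.25 in C, −0.10 to 0.068 in E, −0.63 to −0.35 in G, −0.71 to 0.56 in H and −0.79 to 1.31 in I. The cause of these shifts was not tested beyond what each alternative leaves out. Members with few own bases or counts limit what the libraries can show.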
